A study of Mus musculus with 10 samples.

Results

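Genes of cell division and DNA replication were followed in mouse spinal cord between 4 and 8 weeks of age. The group holds 34 genes of the 26301 identifiers counted in each library, chosen by gene symbol through their Entrez Gene numbers. Of these, 25 act in mitosis, or mark cells in it, and 9 act in DNA synthesis: Mcm2 to Mcm7, Pcna, Tyms and Rrm2. All 34 were found, and 33 had enough counts for a test.

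The samples were spinal cords of C57BL/6 mice, an inbred laboratory strain, with no transgene or treatment named in the labels. The 10 libraries fall into 4 groups: 4-week males (2 libraries), 4-week females (2), 8-week males (3) and 8-week females (3). The question addressed was how the RNA of the cord differs between these ages. Replicates are numbered in the labels, which do not tie each library to an animal of its own. The p-values therefore rest on a spread between samples that may be technical.

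A library held 8453559 to 11594610 counts. Genes of spinal cord were present in every library, among them Snap25 of neurons at 2358 to 2866 CPM (counts per 1000000 of a library, with TMM scaling between libraries). Some libraries stood apart through genes of other tissues. The summed level of adrenal genes was 136 and 101 CPM in the 4-week males and 13.3 to 17.0 in the other libraries. That of lung epithelial genes was 854 CPM in male 8-week library 2, 97.9 in male 8-week library 3 and at most 6.92 elsewhere. Skeletal muscle genes summed to 607 to 2213 CPM at 4 weeks, highest in male library 1, and 132 to 279 at 8 weeks. Much of the 8-week sum was Pvalb, the gene of that list with the highest counts, at 93.5 to 135.3 CPM. Pvalb also changed least of the list between the ages, by −0.73 on the log2 scale against a median of −3.14. Because some libraries stood apart, results are also given without both male 4-week libraries and without male 8-week libraries 2 and 3.

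A dividing cell first copies its DNA and then separates the copies. The replication genes belong to the first step: the Mcm helicase opens the double helix, Pcna clamps the polymerase to DNA, and Rrm2 and Tyms supply nucleotides. The mitotic genes belong to the second: cyclins and Cdk1 start mitosis, kinases and motor proteins build the spindle, a checkpoint watches chromosome attachment, and Cdc20 and Ube2c help destroy the cyclins. Oligodendrocyte precursors are among the cells that still divide in young spinal cord, whereas its neurons do not. Many mitotic genes carry in their promoters a cell cycle homology region (CHR) near CCAAT boxes, bound by the MuvB complex and NF-Y, and many replication genes carry E2F sites.

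Promoters were available for 27 of the 34 genes, 19 mitotic and 8 replication, as 300-base windows from 250 bases before to 50 bases after the start of transcription in RefSeq (build GRCm38.p6). Both strands were searched for the CHR (TTTGAA or TTCGAA), the CCAAT box (CCAAT) and 4 spellings of the E2F site (TTTCGCGC, TTTGGCGC, TTTCCCGC or TTTGCCGC). The CHR letters were present in 15 of 19 mitotic promoters (78.9%) and 2 of 8 replication promoters (25%), against 19.4% of all 27025. These 27025 are genes, each read by 1 promoter, the first listed. Among the members Prc1 and Mcm7 had 2 listed. An E2F spelling was present in 1 of 19 mitotic promoters (5.26%) and 4 of 8 replication promoters (50%), against 2.32% of all. CCAAT did not separate the sets, with 17 of 19 and 7 of 8, against 37.9% of all promoters. CHR and CCAAT were both present in 15 of 19 mitotic promoters, 2 of 8 replication promoters and 7.7% of all. The 4 mitotic promoters without the CHR letters were those of Birc5, Ccnb1, Cenpe and Nusap1. The 4 replication promoters with an E2F spelling were those of Mcm3, Mcm5, Mcm6 and Mcm7, and the mitotic one was that of Cdk1. A match is a run of letters, not a measured binding site.

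**Figure D1:**
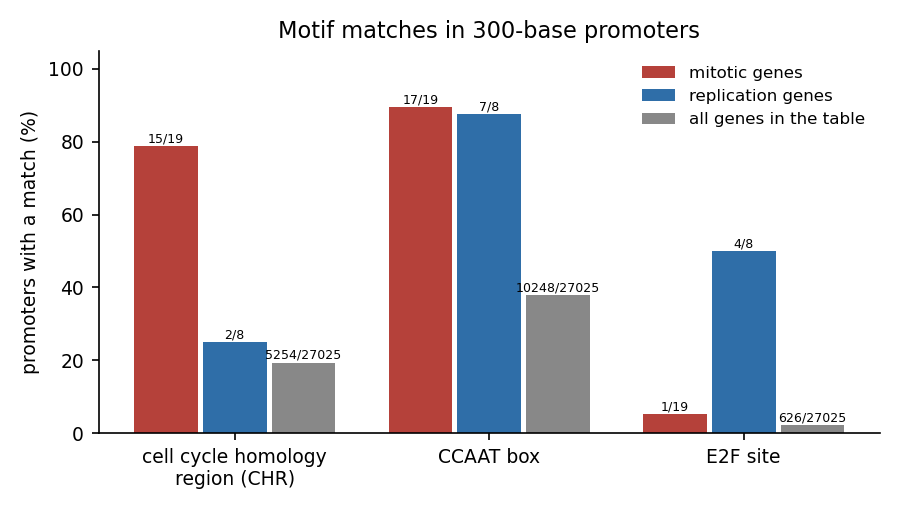
Share of 300-base promoters, in percent, that hold each motif on either strand, for 19 mitotic genes, 8 replication genes and 27025 promoters of all genes. The bars start at 0 and carry the number of promoters with a match. CHR letters lie in 78.9% of mitotic and 25% of replication promoters, and E2F spellings in 5.26% and 50%.

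The 250 bases before the start are shown for the 2 genes of each set with the highest counts among those with a promoter. Those of Cdc20 and Mcm6 were added after the matches were seen, as short examples of each layout. Letters are in lower case, 5′ to 3′ on the strand of the gene, and capitals mark every motif match on either strand. All 6 genes lie on the minus strand: Mki67 at chr7:135716380-135716629, Top2a at chr11:99024190-99024439, Cdc20 at chr4:118437344-118437593, Pcna at chr2:132253181-132253430, Mcm7 at chr5:138171884-138172133 and Mcm6 at chr1:128359706-128359955.
Mki67: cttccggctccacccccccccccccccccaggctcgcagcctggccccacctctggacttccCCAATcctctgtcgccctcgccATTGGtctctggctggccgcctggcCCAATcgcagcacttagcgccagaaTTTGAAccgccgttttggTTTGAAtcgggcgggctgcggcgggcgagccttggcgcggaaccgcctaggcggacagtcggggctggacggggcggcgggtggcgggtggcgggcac
Top2a: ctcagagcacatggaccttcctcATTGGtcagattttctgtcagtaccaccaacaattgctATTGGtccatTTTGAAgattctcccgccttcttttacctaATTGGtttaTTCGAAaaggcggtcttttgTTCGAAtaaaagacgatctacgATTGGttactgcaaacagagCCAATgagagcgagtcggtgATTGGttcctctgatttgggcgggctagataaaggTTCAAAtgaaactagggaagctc
Cdc20: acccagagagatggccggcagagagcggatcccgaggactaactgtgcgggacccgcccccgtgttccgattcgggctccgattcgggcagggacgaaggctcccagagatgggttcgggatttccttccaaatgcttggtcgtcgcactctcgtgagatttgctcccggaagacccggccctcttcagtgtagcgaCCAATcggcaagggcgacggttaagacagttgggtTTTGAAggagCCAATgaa
Pcna: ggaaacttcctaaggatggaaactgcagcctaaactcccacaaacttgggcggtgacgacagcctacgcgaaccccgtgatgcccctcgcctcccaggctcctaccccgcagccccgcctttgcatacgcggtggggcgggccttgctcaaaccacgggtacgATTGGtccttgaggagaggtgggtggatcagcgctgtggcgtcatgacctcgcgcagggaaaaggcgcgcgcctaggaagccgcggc
Mcm7: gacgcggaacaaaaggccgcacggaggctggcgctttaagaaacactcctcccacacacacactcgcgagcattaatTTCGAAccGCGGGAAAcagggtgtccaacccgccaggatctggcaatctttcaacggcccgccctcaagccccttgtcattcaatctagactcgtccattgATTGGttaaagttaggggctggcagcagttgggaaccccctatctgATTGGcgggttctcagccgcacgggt
Mcm6: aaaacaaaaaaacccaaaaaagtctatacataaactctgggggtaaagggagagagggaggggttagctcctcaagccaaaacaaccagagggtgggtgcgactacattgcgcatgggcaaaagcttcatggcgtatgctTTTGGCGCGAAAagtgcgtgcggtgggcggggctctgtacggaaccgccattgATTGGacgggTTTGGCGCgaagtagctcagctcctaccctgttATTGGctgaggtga
In Mki67 the CHR letters begin 116 and 98 bases before the start, behind 3 CCAAT boxes. Top2a has 4 CHR matches and 6 CCAAT boxes, and the last CHR match, read on the opposite strand, begins 23 bases before the start. Cdc20 has 1 CHR match, 18 bases before the start, between 2 CCAAT boxes. In Mcm6 a pair of E2F spellings on opposite strands, beginning 110 and 106 bases before the start, share 4 letters, and another begins 47 bases before the start. Mcm7 has an E2F spelling 165 bases before the start, beside a CHR match, and another 17 bases after it, outside the stretch shown. The Pcna window holds 1 CCAAT box and neither of the other motifs.

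Most mitotic genes and some replication genes were lower at 8 weeks than at 4 weeks. Of the 24 mitotic genes tested 16 fell, and none rose, with a median log2 fold change of −1.05 over all 24. Of the 9 replication genes 4 fell and none rose, with a median of −0.37. Over all 15540 genes tested 5.01% were called lower and 1.61% higher, with a median of 0.01. Calls are those of edgeR's quasi-likelihood test for age over both sexes at an adjusted p under 0.05 over all genes. A bulk library cannot tell fewer dividing cells from less of these RNAs per cell. Without both male 4-week libraries 3 mitotic genes (Mki67, Top2a and Plk1) and 1 replication gene (Mcm6) remained called, and without male 8-week libraries 2 and 3 there were 7 and 1. With a score of marrow marker genes or of muscle marker genes as a covariate 0 members were called. Calls became fewer over all genes as well: 778 were lower in the main fit, and 322 and 400 without these libraries. With the marrow and muscle scores there were 99 and 36.

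**Figure D2:**
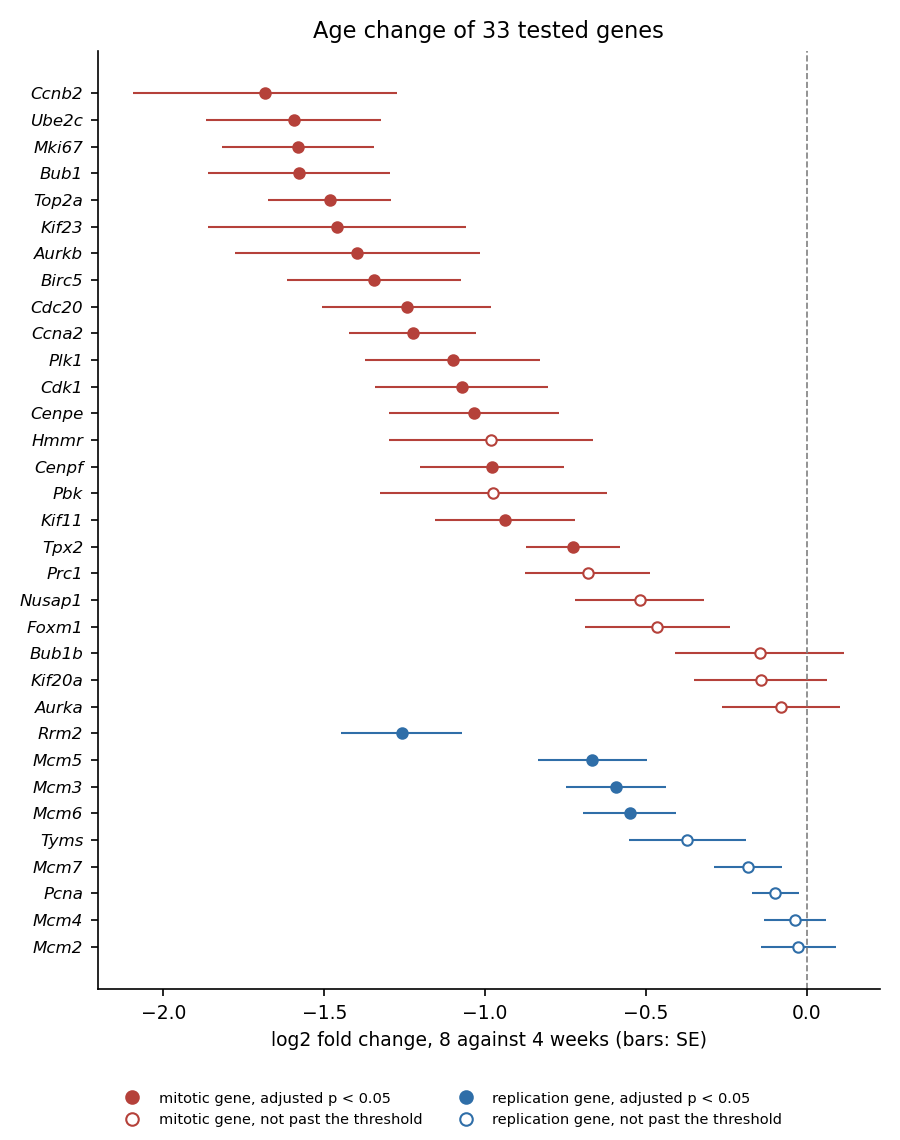
Log2 fold change of 33 genes at 8 against 4 weeks over both sexes, with bars of 1 SE. Filled points passed an adjusted p of 0.05, open ones did not. All 33 estimates lie below 0, from −1.68 (Ccnb2) to −0.03 (Mcm2), against 7518 of the 15540 genes tested.

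Mki67 encodes Ki-67, the protein that coats chromosomes in mitosis and is the usual stain for dividing cells. It stood at 29.6 and 22.7 CPM in the 4-week males and 17.9 and 45.5 in the 4-week females. At 8 weeks it stood at 6.45, 5.18 and 11.3 CPM in males and 10.4, 11.2 and 13.8 in females. Every 8-week library lay below every 4-week library, and the widest gap within a group was between the 4-week females. Its log2 fold change was −1.58 ± 0.24 (SE), with an adjusted p of 9.23e-04 by edgeR.

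Top2a, the topoisomerase that untangles sister chromatids, was also lower at 8 weeks. Its level was 15.3 and 11.8 CPM in 4-week males, 7.81 and 16.0 in 4-week females, 4.27, 3.64 and 3.83 in 8-week males, and 5.06, 5.86 and 4.89 in 8-week females. The ages did not overlap, and 4-week female library 1 lay nearest to the 8-week values. The log2 fold change was −1.48 ± 0.19 (edgeR adjusted p = 3.18e-04). Among the members Top2a alone was also called within females.

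The cyclin-dependent kinase Cdk1 and its cyclin partners open mitosis. Ccna2, cyclin A, which also acts in DNA synthesis, stood at 10.03, 6.80, 5.17 and 8.80 CPM in the 4-week libraries, males first. At 8 weeks it lay between 2.39 and 4.13 CPM. The ages did not overlap, and Ccna2 fell by 1.23 on the log2 scale (SE 0.20, edgeR adjusted p = 0.00166). Ccnb2, a B-type cyclin, was uneven at 4 weeks: 7.15 and 2.96 CPM in males, 1.20 and 5.4 in females. At 8 weeks it was 1.46, 0.772 and 0.748 CPM in males and 1.14, 1.78 and 1.87 in females, so 4-week female library 1 lay among the 8-week values. Its log2 fold change was −1.68 ± 0.41 (edgeR adjusted p = 0.0235), the lowest estimate among the members. Cdk1 was 6.46 and 3.31 CPM in 4-week males, 2.28 and 4.20 in 4-week females, and 1.25 to 2.51 at 8 weeks. Here too 4-week female library 1 lay within the 8-week range, and Cdk1 fell by 1.07 (SE 0.27, edgeR adjusted p = 0.0284). Ccnb2 lost its call without male 4-week library 1, female 4-week library 2, male 8-week library 2 or 3, or female 8-week library 1 (adjusted p up to 0.106). That of Cdk1 was lost without male 4-week library 1, female 4-week library 2, male 8-week library 1 or 2, or female 8-week library 1 or 3 (up to 0.121). Ccnb1, the other B-type cyclin, had 11 counts over all 10 libraries and was not tested, against 235 counts of Ccnb2. A listed pseudogene of it, Ccnb1-ps, had 7 counts, and how reads were shared between copies is not given in the sources used here.

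Of 4 kinases that time mitosis, Aurkb and Plk1 fell, and Aurka and Pbk did not pass the test. Aurkb, the kinase of the chromosomal passenger complex, and Birc5 (survivin), its partner, both fell. Birc5 was 6.69, 4.27, 3.85 and 6.10 CPM in the 4-week libraries, males first, and 0.936 to 2.995 CPM at 8 weeks, with no overlap (log2 fold change −1.35 ± 0.27, edgeR adjusted p = 0.00754). Aurkb was 2.88, 1.57, 1.20 and 2.70 CPM at 4 weeks and 0.221 to 1.45 at 8 weeks, and only 8-week female library 1 reached into the 4-week range (−1.40 ± 0.38, edgeR adjusted p = 0.0422). Plk1, a kinase of spindle assembly and of exit from mitosis, fell by 1.101 (SE 0.27, edgeR adjusted p = 0.0263). Aurkb lost its call without male 4-week library 1 or female 4-week library 2, with each 8-week male left out, and without female 8-week library 2 or 3 (adjusted p up to 0.146). Plk1 lost its own without male 4-week library 1 or female 4-week library 2, then without male 8-week library 3, and with each 8-week female left out (up to 0.101). Aurka, the related kinase of spindle poles, was 3.23, 3.399, 3.485 and 3.5 CPM at 4 weeks and 2.43 to 4.16 at 8 weeks. The 8-week libraries lay on both sides of the 4-week ones, 4 below and 2 above, and its log2 fold change was −0.08 ± 0.18 (edgeR adjusted p = 0.847). Pbk, a mitotic kinase, had −0.97 ± 0.35 and did not pass (edgeR adjusted p = 0.121).

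Genes of the spindle checkpoint and of the anaphase-promoting complex, which ends mitosis, followed, of which Bub1, Cdc20 and Ube2c fell. Bub1, a checkpoint kinase, was 1.73 and 1.57 CPM in 4-week males and 1.68 and 1.3 in 4-week females. At 8 weeks it was 0.728, 0.662 and 0.468 CPM in males and 0.310, 0.314 and 0.624 in females. The ages were well apart, although the gene had 90 counts over all libraries, and Bub1 fell by 1.58 (SE 0.28, edgeR adjusted p = 0.00348). Its relative Bub1b, a checkpoint inhibitor of that complex, was 4.96, 5.49, 4.21 and 7.10 CPM at 4 weeks and 3.95, 3.75, 9.45, 3.61, 4.92 and 3.95 at 8 weeks. Male 8-week library 3 held the highest Bub1b value of all, and the log2 fold change was −0.15 ± 0.26 (edgeR adjusted p = 0.802). Cdc20, the activator of that complex, was 3.34 and 2.27 CPM in 4-week males and 1.80 and 3.4 in 4-week females, against 0.748 to 1.55 at 8 weeks. Ube2c, the ubiquitin-conjugating enzyme that works with it, was 5.42, 4.79, 2.64 and 5 CPM at 4 weeks and 0.832 to 2.30 at 8 weeks. Neither gene overlapped between the ages, with log2 fold changes of −1.24 ± 0.26 for Cdc20 and −1.59 ± 0.27 for Ube2c (edgeR adjusted p = 0.0101 and 0.00251). Without female 4-week library 2 the adjusted p of Cdc20 was 0.0565.

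**Figure D3:**
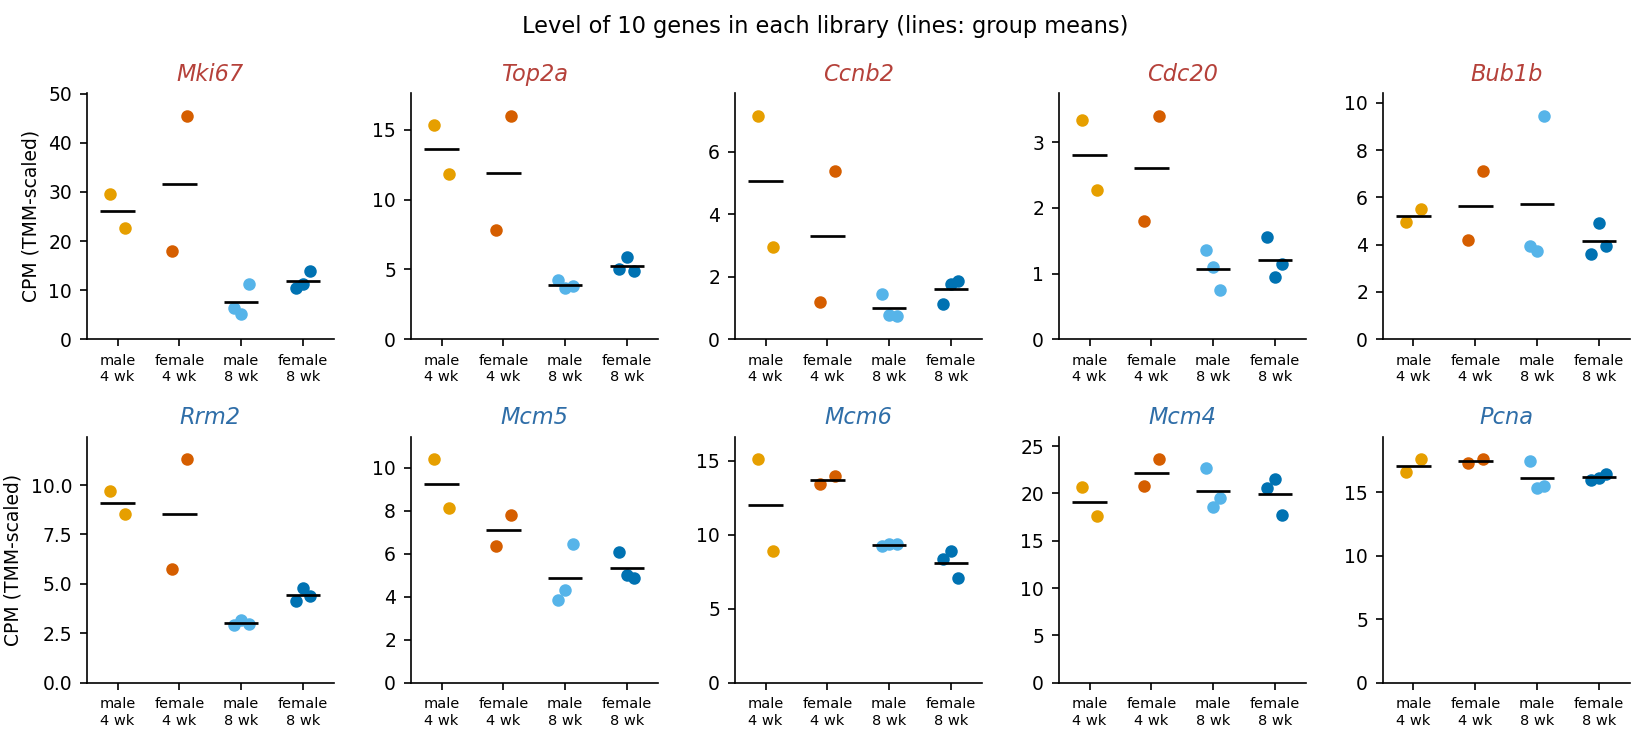
Level of 10 genes in each of 10 libraries, in TMM-scaled CPM on axes that start at 0; points are libraries and lines group means. Mki67, Top2a, Cdc20 and Rrm2 are lower in all 8-week libraries than in all 4-week ones, Ccnb2 and Mcm6 overlap, Bub1b has its highest value in male 8-week library 3, and Mcm4 and Pcna overlap between the ages.

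Of the genes of kinetochore, spindle and cytokinesis, Tpx2, which nucleates spindle microtubules, had the smallest SE of the 24 mitotic genes. It was 7.61, 5.75, 5.41 and 6.20 CPM at 4 weeks and 3.43 to 4.34 at 8 weeks, with no overlap (log2 fold change −0.73 ± 0.15, edgeR adjusted p = 0.00702). Cenpe, a kinetochore motor, and Cenpf, a kinetochore protein, fell by 1.04 and 0.98. Kif11, which pushes spindle poles apart, fell by 0.94, and Kif23, a motor of the central spindle, by 1.46. Cenpf lost its call without female 4-week library 2 (adjusted p = 0.0962), and Kif11 without that library or male 4-week library 1 (up to 0.0731). Cenpe lost it without either male 4-week library, female 4-week library 2, male 8-week library 1 or 2, or female 8-week library 3 (up to 0.0946). Kif23 lost it without male 4-week library 1 or female 4-week library 2, with each 8-week male left out, and without female 8-week library 1 or 3 (up to 0.166). The remaining genes of this role did not pass: Prc1, which bundles microtubules, stood close to the threshold at −0.68 ± 0.19 (edgeR adjusted p = 0.0513), Hmmr, a spindle-associated hyaluronan receptor, was at −0.98 ± 0.32 (0.0853), and Nusap1, a microtubule-bundling protein, at −0.52 ± 0.20. Prc1 was called with no filter on low counts (adjusted p = 0.0254), by DESeq2 (0.0348) and without female 4-week library 1 (0.0121), and Hmmr without that library (0.0206). Kif20a, a motor of cytokinesis, was 2.35 to 3.69 CPM at 4 weeks and 1.86 to 3.53 at 8 weeks, with −0.14 ± 0.21. Foxm1, the transcription factor that acts on many mitotic genes, had −0.47 ± 0.23 (edgeR adjusted p = 0.261), and was 3.48 to 5.20 CPM at 4 weeks against 2.29 to 4.92 at 8 weeks.

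Among replication genes Rrm2, the small subunit of ribonucleotide reductase, stood nearest to the mitotic genes. It was 9.69 and 8.54 CPM in 4-week males, 5.77 and 11.3 in 4-week females, 2.91, 3.198 and 2.99 in 8-week males, and 4.13, 4.81 and 4.37 in 8-week females. The ages did not overlap, and Rrm2 fell by 1.26 (SE 0.19, edgeR adjusted p = 9.40e-04). Its call held when any 1 library was left out, and was lost without both male 4-week libraries (−0.96 ± 0.25, edgeR adjusted p = 0.0697). Tyms, thymidylate synthase, was 3.81, 2.96, 2.40 and 3.30 CPM at 4 weeks and 1.98 to 2.98 at 8 weeks, with −0.37 ± 0.18 (edgeR adjusted p = 0.263). Tyms-ps, a listed pseudogene, had 35 counts against 260 of Tyms over all libraries.

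Mcm2 to Mcm7 are the 6 subunits of the ring-shaped helicase, and Mcm3, Mcm5 and Mcm6 fell. Mcm5 was 10.4 and 8.11 CPM in 4-week males, 6.37 and 7.80 in 4-week females, 3.85, 4.30 and 6.45 in 8-week males, and 6.09, 5.02 and 4.89 in 8-week females. Mcm3 was 10.6, 8.28, 6.49 and 8.50 CPM at 4 weeks and 4.26 to 7.06 at 8 weeks. Mcm6 was 15.1, 8.89, 13.5 and 14 CPM at 4 weeks and 7.07 to 9.37 at 8 weeks. In each of these some 8-week library reached into the 4-week range, and they fell by 0.67, 0.59 and 0.55 on the log2 scale (SE 0.17, 0.16 and 0.14, edgeR adjusted p = 0.0299, 0.0351 and 0.0343). These calls were not steady over libraries. Mcm3 and Mcm5 lost theirs without male 4-week library 1, female 4-week library 2, male 8-week library 1 or female 8-week library 2 or 3, Mcm3 also without male 8-week library 3 and Mcm5 without male 8-week library 2, with adjusted p up to 0.128 and 0.112. Mcm6 lost its call without any library other than male 4-week library 2 (up to 0.14), but was the replication gene still called without both male 4-week libraries (−0.76 ± 0.14, adjusted p = 0.0102). Mcm4 was 20.6, 17.6, 20.8 and 23.6 CPM at 4 weeks and 17.7 to 22.7 at 8 weeks, and Mcm2 was 9.37 to 11.8 and 8.70 to 12.1. Their ages overlapped, with log2 fold changes of −0.04 ± 0.10 for Mcm4 and −0.03 ± 0.12 for Mcm2. Mcm7, with −0.18 ± 0.11, did not pass either.

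Pcna had the smallest SE of the members. It was 16.6, 17.6, 17.3 and 17.6 CPM at 4 weeks and 15.3 to 17.5 at 8 weeks, with a log2 fold change of −0.10 ± 0.07 (edgeR adjusted p = 0.48). Pcna also acts in DNA repair, which cells outside the cell cycle carry out.

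The summed level of the 25 mitotic genes was 154 and 114.5 CPM in 4-week males, 89.6 and 166 in 4-week females, 51.8, 52.1 and 69.6 in 8-week males, and 64.85, 73.4 and 70.4 in 8-week females. That of the 9 replication genes was 113, 94.0, 93.2 and 109 CPM at 4 weeks and 77.3 to 86.9 at 8 weeks. Both sums were lower in every 8-week library than in every 4-week library. The ratio of the mitotic to the replication sum, read only as a change between libraries since genes differ in length, was 1.37 and 1.22 in 4-week males and 0.961 and 1.525 in 4-week females. At 8 weeks it was 0.609, 0.624 and 0.8815 in males and 0.7485, 0.845 and 0.911 in females. Every 8-week ratio lay below every 4-week ratio, the closest being 0.961 of 4-week female library 1 and 0.911 of 8-week female library 3. The sums, and so the ratio, lean on abundant genes. Mki67 averaged 28.9 CPM at 4 weeks and 9.73 at 8 weeks, within mean mitotic sums of 131 and 63.7. Mcm4, the most abundant replication gene, averaged 20.7 and 20.1 CPM, within mean sums of 102 and 83.0. The sets were described side by side, without a test of the difference. All 8-week libraries lay below all 4-week libraries in 8 of 24 mitotic genes (33.3%) and in 1 of 9 replication genes (11.1%), against 4.84% of all genes tested.

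**Figure D4:**
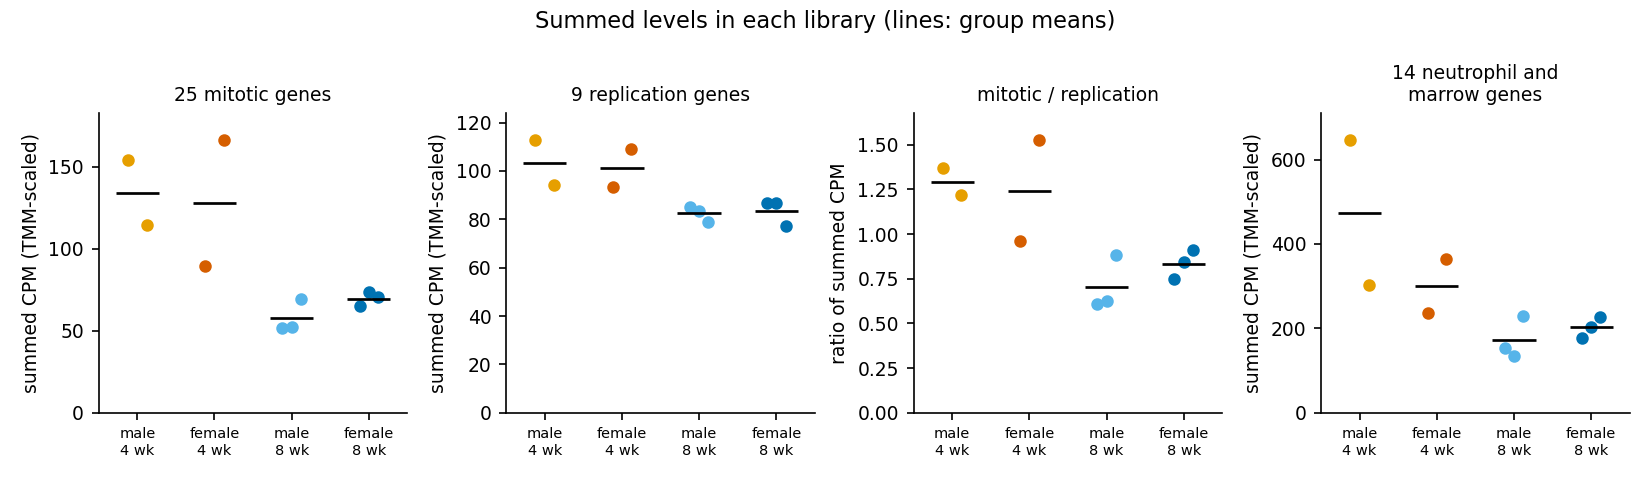
Summed TMM-scaled CPM of 25 mitotic genes, 9 replication genes and 14 neutrophil and marrow genes in each library, and the ratio of the mitotic to the replication sum; points are libraries, lines group means, and axes start at 0. The mitotic sum spans 89.6 to 166 CPM at 4 weeks and 51.8 to 73.4 at 8 weeks, the replication sum 93.2 to 113 and 77.3 to 86.9. The 4-week libraries with the highest mitotic sums also have the highest marrow sums, and the highest sums of some other tissue lists (not shown).

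Age was then read within each sex. In males 8 of 24 mitotic genes and 1 of 9 replication genes (Rrm2) fell, against 2.39% of all genes called lower, with medians of −1.33 and −0.34. The male calls were Mki67, Top2a, Ccna2, Birc5, Cenpe, Kif11, Tpx2 and Ube2c. Ube2c had the largest male fall among them, −2.22 ± 0.34. In females 1 of 24 mitotic genes, Top2a (−1.19 ± 0.26, edgeR adjusted p = 0.0464), and 0 of 9 replication genes were called, against 1.22% of all, with medians of −0.80 and −0.37. At an unadjusted p under 0.05, 18 mitotic genes were lower in males and 11 in females, against 9.23% and 7.65% of all genes. The female call of Top2a rested on single libraries: the count of mitotic genes called was 0 when female 4-week library 2 was left out, and likewise for male 8-week library 1 or 2 and for each 8-week female. It was 3 without either male 4-week library. It was also 0 by limma-voom. The male count was 2 without male 4-week library 1, 3 and 4 without male 8-week library 1 and 2, and 0 without male 8-week libraries 2 and 3 together.

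The difference in age change between the sexes was tested itself, and 0 of 33 members were called, by edgeR and also by DESeq2 and limma-voom, against 0.0129% of all genes by edgeR. At an unadjusted p under 0.05 there were 2 of 24 mitotic genes, Ube2c (difference −1.20 ± 0.48) and Cenpe (−1.11 ± 0.46), against 4.82% of all genes. The estimate was lower in males than in females in 19 of 24 mitotic genes and 5 of 9 replication genes, and below 0 in both sexes in 21 of 24 and 7 of 9. Bub1 and Plk1 were among those with the lower estimate in females, −1.80 ± 0.42 and −1.53 ± 0.37, against −1.40 ± 0.38 and −0.70 ± 0.36 in males. Mcm6 likewise had −0.76 ± 0.20 in females and −0.34 ± 0.20 in males. None of these differences passed the test.

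**Figure D5:**
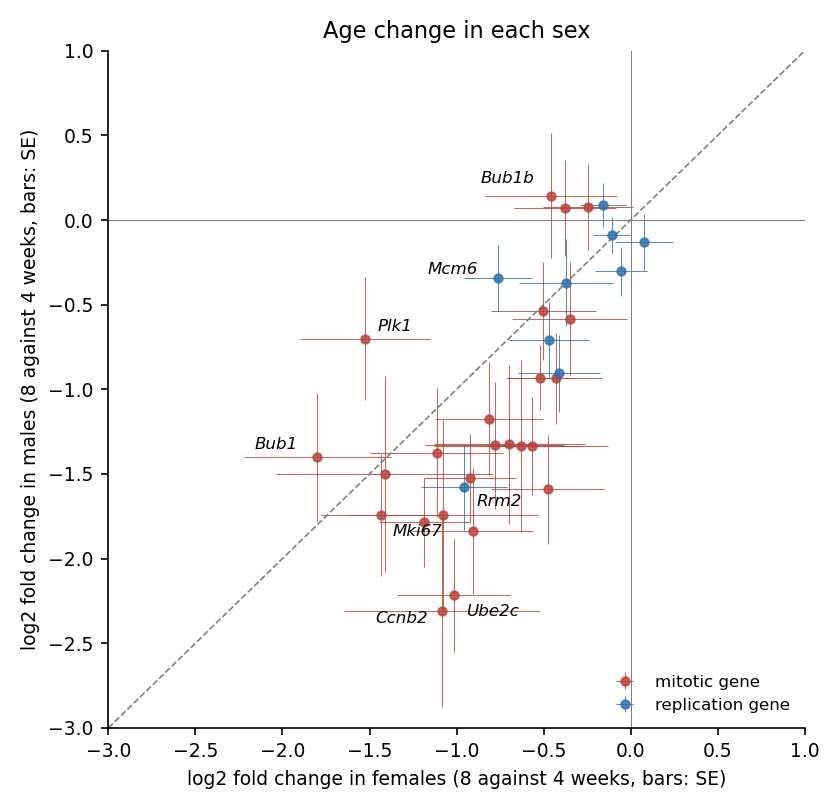
Log2 fold change at 8 against 4 weeks of 33 genes in males (vertical axis) and females (horizontal axis), with bars of 1 SE and a dashed line of equal change. Most mitotic genes lie below the line, 19 of 24 (over all genes tested, not shown, 7715 of 15540), and Plk1, Bub1, Bub1b and Mcm6 lie above it.

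Sex over both ages gave 0 called members by edgeR, DESeq2 and limma-voom, against 0.0901% of all genes by edgeR. The median log2 fold change of males against females was −0.06 for mitotic and 0.02 for replication genes, and 1 of 24 mitotic genes, Cenpf (−0.50), had an unadjusted p under 0.05, against 7.36% of all genes.

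Related genes were taken from 8 pathway lists, and none of them rose. Their counts are to be read against the 5.01% of all genes called lower. Origin licensing and fork genes had 2 of 43 lower, a share near that of all genes, with a median log2 fold change of −0.15: Uhrf1, which maintains DNA methylation behind the fork (−1.06 ± 0.20), and Cdc6, which loads the Mcm ring (−1.10 ± 0.30). Nucleotide supply genes had 0 of 5 called, with Tk1, a kinase of thymidine salvage, at −0.95 ± 0.37. Kinetochore and checkpoint genes had 4 of 29 lower, among them Cenpa, the histone of centromeres (−1.30 ± 0.17), and Cdca8, another protein of the passenger complex (−1.24 ± 0.26). Spindle motor and cytokinesis genes had 4 of 21 lower, including Fam83d (−1.14 ± 0.16) and Ect2, which sets the cleavage furrow (−0.95 ± 0.20). Condensin and cohesion genes had 3 of 12 lower, including Cdca5, which protects cohesion (−1.56 ± 0.31), and Smc4, a condensin subunit (−0.47 ± 0.10).

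Regulators of the cycle were read in the same way, against the same 5.01%, and in lists this small 1 gene more or less moves the share far. Cell cycle transcription factors had 3 of 19 lower, including E2f8 (−1.36 ± 0.24) and E2f2 (−1.04 ± 0.22), with a median of −0.08 over the list. G1 cyclins, kinases and phosphatases had 0 of 12 called, with Cdk4 at −0.25 ± 0.08 (edgeR adjusted p = 0.0694) and Cdk2 at −0.40 ± 0.15 (0.121). Of 6 inhibitors of cyclin-dependent kinases 1 fell, Cdkn1c, which restrains cycling in developing tissue: 50.7 to 77.8 CPM at 4 weeks and 32.7 to 40.1 at 8 weeks (−0.83 ± 0.10, edgeR adjusted p = 1.25e-04). Cdkn2c was at −0.57 ± 0.21 and did not pass. Counts were 0 in some library for Troap, of the cytokinesis list, and for Cdkn2a.

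Markers of blood-forming cells were lower at 8 weeks in most genes of their lists, and those of oligodendrocyte precursors and microglia in fewer, against 5.01% of all genes called lower and 1.61% called higher. Of oligodendrocyte precursor genes 4 of 12 were lower, and their summed level was 1275 to 1449 CPM at 4 weeks and 1120 to 1211 at 8 weeks, with Olig1, a lineage factor, at −0.31 ± 0.06. The others called were Gpr17, the lowest of the list (−0.793 ± 0.071), Neu4 (−0.375 ± 0.083) and Sox10 (−0.289 ± 0.051), which is also on the Schwann cell list. Ptprz1 (0.168 ± 0.084) and Lhfpl3 (0.016 ± 0.061) lay above 0, and the median of the list was −0.23. Pdgfra and Cspg4, which define these cells, did not pass, at −0.14 ± 0.07 and −0.23 ± 0.11. Of microglia genes 1 of 12 was lower, a single gene, with a median of −0.05 and sums of 580 to 609 and 519 to 638 CPM that overlapped. Of 13 tested neutrophil and marrow genes 12 were lower, with a median of −1.01, and the lowest was Mpo, a granule enzyme made in marrow precursors (−1.81 ± 0.28). Their sum was 646 and 303 CPM in 4-week males and 235 and 364 in 4-week females, 134 to 229 in 8-week males and 178 to 228 in 8-week females. S100a9, the gene of that list with the highest counts, was 70.3 to 202 CPM at 4 weeks and 40.1 to 72.4 at 8 weeks, and Ms4a3 had 0 counts in some library. Within 4 weeks the libraries with the highest mitotic sums, male 1 and female 2, also had the highest marrow sums, and female library 1 had the lowest of both. This was not particular to marrow genes. The same libraries had the highest 4-week sums of erythroid, lymphoid, cartilage and bone, and fibroblast genes, though not of muscle or fat genes. Female 4-week library 1 and male 8-week library 3, with near marrow sums of 235 and 229 CPM, had mitotic sums of 89.6 and 69.6 CPM. These are single libraries of different sex, picked after their values were seen, and the male one also held lung genes at 97.9 CPM. Erythroid genes had 8 of 9 lower and lymphoid genes 4 of 5, where Vpreb1, Cd3e, Cd3d and Cd8a had 0 counts in some library.

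With the marrow score, the mean centred log2 level of that list, as a covariate, 0 of 24 mitotic and 0 of 9 replication genes were called, the medians were −0.35 and −0.15, and the median SE of all genes went from 0.096 to 0.160. Lower calls over all genes went from 778 to 99. The score was at least −0.021 in every 4-week library and at most −0.061 in every 8-week library. The score thus follows age, but it also varied within 4 weeks, up to 1.453 in male library 1. This fit therefore separates the score from age only in part. The part of these marker cells in the lower mitotic levels was not tested beyond these values.

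Genes of other tissues were also called lower at 8 weeks over both sexes, against 5.01% of all genes. Skeletal muscle genes had 12 of 12 lower, cartilage and bone genes 8 of 10, fat genes 6 of 7 and adrenal genes 7 of 8. The adrenal sums were high only in the 4-week males, and within females 0 of 8 adrenal genes were called (median −0.014). Within females 0 of 7 fat genes were called either (median −2.625). With the muscle score as a covariate 0 members were called, the mitotic median was −0.62, the replication median 0.125 and the median SE of all genes 0.216. Over all genes 36 were called lower in that fit. The muscle score was at least 1.038 in every 4-week library and at most −0.578 in every 8-week library, so it too follows age. Without male 8-week libraries 2 and 3 the mitotic median was −1.02, and without both male 4-week libraries −0.80. The part of these tissues in the members' levels was not tested further. Mature oligodendrocyte genes had 8 of 8 lower, against 5.01% of all genes called lower. Neuron genes had 1 of 9 higher, a single gene, against 1.61% of all genes called higher.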

How the data were processed

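Spinal cord RNA was sequenced in 10 libraries, after Trizol extraction per the labels' protocols. The authors deposited read counts per gene, 1 file per library, with no normalization. TopHat2 2.1.0, featureCounts and the mouse build mm9 were used, per the submitters' processing notes. How reads were assigned (options, strand, annotation) is not given in the sources used here. Genes with close copies or overlapping partners are therefore uncertain. Symbols were matched by identifier to RefSeq (GRCm38.p6, names and promoters only), 24191 of 26301.

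Counts were tested with edgeR 4.0.16 (R 4.3.3): TMM scaling, filterByExpr (minimum count 10, total 15; 15540 genes), two-sided quasi-likelihood F test, Benjamini-Hochberg at 0.05 over all genes. Age and sex came from an additive model (7 residual df), age within a sex and the interaction from a model of 4 groups (6). An SE is the absolute log2 fold change over the root of F. A count of 10 is 0.8625 to 1.183 CPM, so levels near 1 CPM are imprecise. Replicate pairs differed by more than sampling noise (chi-square over degrees of freedom 1.918 to 11.21). Alternatives were DESeq2 1.42.0, limma-voom (limma 3.58.1), other scalings and filters, a replicate block, marker scores as covariates and left-out libraries.

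The members, lists, tests and alternatives were chosen with earlier results of these data known. All members were named, with the 2 genes of lowest p for age in each pathway list, and from each marker list the gene with the highest counts and genes at 0; other marker genes named here were chosen after their values were seen. A gene of the nucleotide supply list that this rule names is not reported here. Set differences were described, not tested.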

Additional observations from a re-analysis of the deposited data

Results flagged for a closer look

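The 72 values examined were the level of each tested member, the summed sets and the ratio of their sums, at each age. Among these, 2 held a library far from the others of its age by Dixon's test, where chance gives about 1 in 20. Bub1b stood at 9.445 CPM in male 8-week library 3, against 4.916 CPM in the next of 6 libraries, a gap of 0.7768 of the range. Cenpe stood at 2.163 CPM in female 4-week library 1, against 4.40 CPM in the next of 4 libraries, a gap of 0.8722 of the range.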

How the results depend on the processing

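For age over both sexes, other scalings and filters, DESeq2 and the average of both within-sex contrasts kept 18 to 20 of the 20 calls, and limma-voom 17; DESeq2 and the fit with no filter on low counts each called 1 more gene, Prc1. Whether the replicate numbers pair the samples could not be decided. Deviations from the group means correlated at −0.2125 to 0.2364 over 13 same-numbered pairs and at −0.2536 to 0.2536 over the others. In the 4-week groups of 2 libraries such deviations mirror each other, so this check cannot exclude pairing. With the replicate block 13 of 20 calls remained, 2 of them in replication genes. Prc1 was also called in that fit (edgeR adjusted p = 0.0457), and Aurka went to 0.007, Mcm2 to 0.069 and Mcm4 to 0.014. The cause was not tested for the changes that follow, beyond the fewer samples of some fits. Without both male 4-week libraries 3 mitotic (median −0.80) and 1 replication gene were called, and without male 8-week libraries 2 and 3 there were 7 and 1. The marrow score as a covariate left 0 and 0 (medians −0.35 and −0.15), and the muscle score 0 and 0 (medians −0.62 and 0.125). Over all genes these covariate fits called 99 and 36 lower, against 778 in the main fit. Leaving out 1 library in turn gave 7 to 18 mitotic calls (medians −1.25 to −0.93) and 1 to 4 replication calls (medians −0.45 to −0.28), with 9 and 1 without male 4-week library 1 and 7 and 1 without female 4-week library 2; 8 of the 20 genes kept the call each time. In males, the mitotic count was 0 without male 8-week libraries 2 and 3 and 2 to 12 without 1 library (medians −1.62 to −0.97). The male replication count was 2 with no filter and by limma-voom, 0 without male 8-week libraries 2 and 3, and 1 to 3 without 1 library (medians −0.55 to −0.18). In females, the mitotic count was 0 by library totals, by limma-voom and without male 8-week libraries 2 and 3, 3 with no filter and without both male 4-week libraries, and 0 to 3 without 1 library (medians −1.18 to −0.36). The female replication count was 2 with no filter, 1 without both male 4-week libraries and 0 to 1 without 1 library (medians −0.54 to −0.11). The median mitotic difference between the sexes' age changes was −1.06 to −0.11 without 1 library, and that of sex was −0.38 without both male 4-week libraries. Signs turned as follows. With the muscle score the log2 fold changes were 0.193 for Cdk1, 0.211 for Kif20a, 0.136 for Kif23, 0.189 for Foxm1, 0.325 for Pbk, 0.468 for Mcm2, 0.085 for Mcm3, 0.284 for Mcm4, 0.192 for Mcm6, 0.125 for Mcm7 and 0.179 for Tyms. With the marrow score they were 0.273 for Bub1b, 0.052 for Kif20a, 0.005 for Prc1, 0.054 for Hmmr, 0.017 for Foxm1, 0.282 for Pbk and 0.072 for Mcm2. Without both male 4-week libraries Mcm2 was 0.075, and without male 8-week libraries 2 and 3 it was 0.019. Without 1 library in turn Mcm2 ranged from −0.101 to 0.043, Bub1b from −0.45 to 0.095, Aurka from −0.160 to 0.010 and Mcm4 from −0.107 to 0.037. At about 10 counts per CPM, genes such as Ccnb1 and Bub1 are limited by depth.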
